A study of Mus musculus with 8 samples.

Results

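Coding peaks are the eCLIPseq peaks of the RNA helicase DDX5 that overlap coding sequence of a GENCODE M21 transcript on the same strand (GRCm38), without the peaks that cover at least 5 exonic and 5 intronic bases across a splice site of the principal transcript. They made up 12897 of the 26879 listed peaks, and they were kept apart by list: 7626 of 16455 in the colon list named mAb, 4893 of 9146 in the colon list named rAb, and 378 of 1278 in the small intestine list. They lay on 3001, 2102 and 167 genes. The working description "wholly within coding exons" was not strictly met, since every base was coding in 5796, 3829 and 253 of them, and the rest also held bases outside coding sequence.

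The 8 samples were epithelial cells of C57BL/6 mice released with EDTA. Small intestine cells of wild-type females aged 8 weeks gave 2 CLIP and 2 input libraries, sequenced paired-end and merged by the authors into 1 list. Colon cells gave 1 CLIP and 1 size-matched input library for each of mAb and rAb, sequenced single-end, and the names of both colon lists mark merged replicates. The colon genotype is labelled wild type, while the growth protocol names mice aged 120 days with a floxed Apc allele (Apc fl/+) and CDX2Cre, a recombinase driven by a promoter of the posterior gut epithelium. The study's methods describe wild-type mice, so the colon genotype is not settled. All CLIP labels carry 1 antibody catalogue number, so the labels do not say how mAb and rAb differ. Tissue, protocol and peak selection changed together between small intestine and colon and cannot be told apart. Each condition is 1 list, so ranges in brackets after a share are exact (Clopper-Pearson) 95% limits for counting error alone, and no test was made between lists.

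DDX5 is a DEAD-box helicase, a family of enzymes that unwind or remodel RNA with the energy of ATP. It takes part in splicing, microRNA processing and transcription. In eCLIPseq, UV light links a protein to the RNA it touches, RNase trims the RNA, and an adapter is ligated to the 3′ end of each fragment after immunoprecipitation (IP). Reverse transcription then starts from a primer that is complementary to this adapter. A peak over coding sequence reports spliced mRNA or its precursor, and abundant mRNAs give more reads, which is why each peak is set against a size-matched input.

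Coding peaks with a −log10 p and a log2 fold of IP over input both past 3, the cutoff of the study, are called coding sites. Among the colon coding sites, a short run of transcript sequence recurred right at the 3′ edge of the peak, so the sequences are shown first. Each line gives the 30 genomic bases up to the 3′ end of the peak and the 25 past it, on the strand of the transcript (GRCm38, 5′ to 3′), and where the peak is shorter the first of these lie before it. Capitals mark TCGGAAG, a run of 7 bases that also occurs in the Illumina 3′ adapter. C3, the central component of complement, is shown with its whole peak in place of the 30 bases, and the others are coding sites of colon transcripts chosen to show the same run in unrelated genes.
C3 exon 30, mAb, chr17:57210151-57210253, minus strand: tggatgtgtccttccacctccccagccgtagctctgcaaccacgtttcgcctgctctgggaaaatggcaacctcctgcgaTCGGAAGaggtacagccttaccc
Cxadr exon 4, mAb, chr16:78333359-78333413, plus strand: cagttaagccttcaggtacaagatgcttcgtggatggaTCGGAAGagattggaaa
Myo1e exon 9, mAb, chr9:70327142-70327196, plus strand: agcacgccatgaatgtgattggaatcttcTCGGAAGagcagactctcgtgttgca
Cnot8 exon 6, mAb, chr11:58115277-58115331, plus strand: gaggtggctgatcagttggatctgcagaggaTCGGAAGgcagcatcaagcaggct
Xpo6 exon 5, mAb, chr7:126160940-126160994, minus strand: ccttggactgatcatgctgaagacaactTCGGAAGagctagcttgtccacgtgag
Baz2a exon 20, mAb, chr10:128122401-128122455, plus strand: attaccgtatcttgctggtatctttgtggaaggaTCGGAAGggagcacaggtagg
Larp4b exon 14, rAb, chr13:9164666-9164720, plus strand: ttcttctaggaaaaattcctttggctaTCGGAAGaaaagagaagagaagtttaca
Eif4enif1 exon 9, rAb, chr11:3227737-3227791, plus strand: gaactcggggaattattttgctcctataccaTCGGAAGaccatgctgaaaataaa

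Few coding peaks of the colon passed the cutoff. In the mAb list 44 coding peaks on 34 genes did, or 0.577% of the coding peaks, beside 1.22% of all peaks in that list. In the rAb list 78 coding peaks on 49 genes did, or 1.59%, beside 1.99% of all peaks. All 378 small intestine coding peaks were sites, as were 100% of the peaks in that list, because its authors kept no peak under the cutoff. Outside the coding class the share past the cutoff was 1.78% in mAb and 2.45% in rAb, with peaks on exons of noncoding transcripts at 4.07% and 5.89%. Peaks over a splice site passed in 0.527% and 3.24%, those of 5′ UTRs in 1.22% and 1.57%, and those of 3′ UTRs in 0.251% and 0.634%. Peaks that overlapped no exon on their strand, in introns or outside genes, passed in 2.3% and 2.61%.

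The colon coding sites rested on few reads. Whole reads could be worked back from the deposited fold and p for every one of them: the median site had 16 IP reads in mAb (10 to 60) and 13.5 in rAb (7 to 116). The median input was 2 and 3 reads, and 17 sites in each list had 1 input read, which may also stand for none. The other coding peaks with traceable reads, nearly all above input, had a median of 3 IP reads in both lists, so most could not have reached the cutoff. Among traced peaks with at least as many IP reads as the shallowest coding site, 10.8% of coding peaks passed in mAb, beside 17.8% of all such peaks, and 15.7% passed in rAb, beside 16%.

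Peaks had been called on the IP library, and coding peaks below the cutoff mostly lay above input. Their median log2 fold was 0.98 in mAb and 1.65 in rAb, and 77.0% and 91.1% of them lay above 0. The medians of coding sites were 3.77 for mAb, 3.81 for rAb and 3.74 for small intestine. In rAb, 985 of the 4815 other coding peaks had a fold past the cutoff with a p that missed it, against 60 of 7582 in mAb. At the edge of the cutoff in mAb lay a peak of Egfem1 at 3.02, with only 3.23% of its 31 bases coding. Just outside lay one of Cxadr at 2.92. In rAb the corresponding peaks were in Myh9, at 3.03, and in Wasf2, at 2.98, and the lowest small intestine site was in Anpep, which encodes a brush border peptidase.

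**Figure D1:**
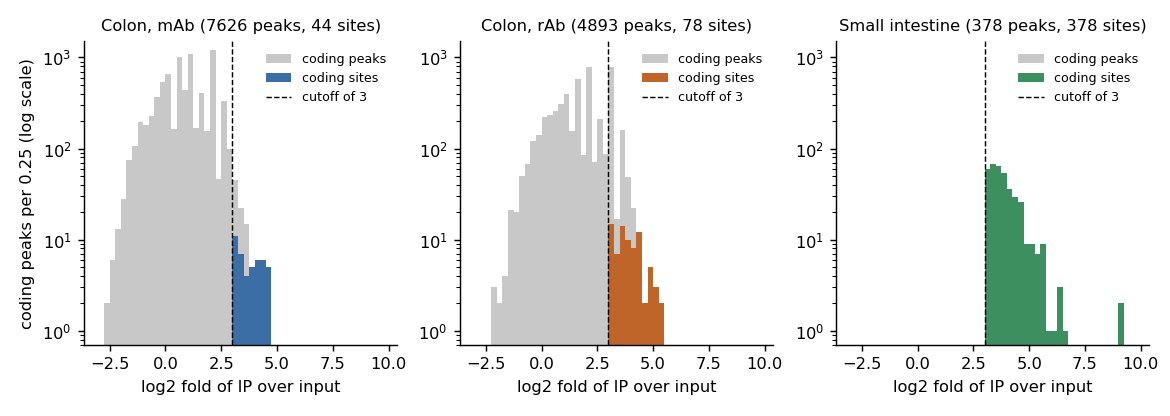
Log2 fold of IP over input (x axis) of all coding peaks, counted in steps of 0.25 on a log scale (y axis), with grey for all coding peaks and colour for coding sites. The colon sites are the thin right edge of each list, 44 of 7626 and 78 of 4893, while the small intestine list holds only peaks right of the dashed cutoff.

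The run TCGGAAG was far commoner at the 3′ end of colon coding sites than elsewhere in coding sequence. It was sought on the strand of the peak, with its first base between 10 bases before and 15 bases past the first base after the peak, in the genome or across the splice junction of the principal transcript. In mAb 17 of 44 coding sites held it, or 38.6% (24.4 to 54.5), against 146 of 7582 other coding peaks, or 1.93%. In rAb 20 of 78 sites held it, or 25.6% (16.4 to 36.8), against 96 of 4815 others, or 1.99%. Coding sequence at large rarely has it: it was in 0.210% and 0.220% of 32-base windows, the length of the search, along the coding sequence of all genes with a coding peak in mAb and rAb. In the genes with a coding site the windows held it in 0.643% (22 of 3420) and 0.613% (28 of 4564), counts that include runs at the sites themselves. Of the small intestine coding sites, 0 of 378 held it, which allows a share of up to 0.971%, and the windows of those genes held it in 0.150%. Of the coding peaks without the run, 0.362% were sites in mAb and 1.21% in rAb. Of those traced to at least the IP reads of the shallowest site, 7.3% and 12.7% were. Peaks below input could not be traced, so these last shares leave them out.

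The run at coding sites often lay close to the end of the peak. It began within 2 bases of the first base past the peak in 11 of 44 mAb sites and 12 of 78 rAb sites. At any distance searched, 17 and 20 of these sites held it. Of other coding peaks, 0.857% and 0.706% had it within 2 bases. These are shares of all peaks, so they also hold the difference in frequency. Among other coding peaks too, the run began most often at the first base past the peak, in 24 of 7582 for mAb and 12 of 4815 for rAb. In C3 it began 2 bases past that point in both lists. Sites outside the coding class held the run less often, in 4 of 157 for mAb and 10 of 104 for rAb. Apart from peaks over a splice site, these were searched in the genome alone. Searched in that way, 13 of 44 mAb and 18 of 78 rAb coding sites held it. None of the coding sites resembled ribosomal RNA in any list, by an alignment of at least 20 bases of the peak with 15 bases on either side. A peak shorter than 20 bases could count only where its flanks aligned too, so this says little about the shortest sites.

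**Figure D2:**
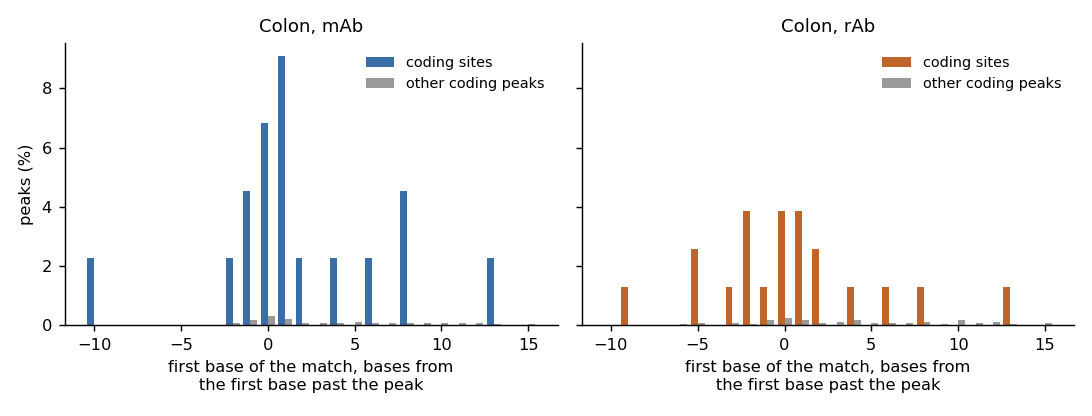
Share of peaks (y axis, percent) whose TCGGAAG run begins at a given distance in bases from the first base past the peak (x axis), for coding sites (colour) and other coding peaks (grey) of the mAb and rAb lists. In both lists the runs of the sites gather around 0, and 11 of 44 mAb sites and 12 of 78 rAb sites fall within 2 bases of it.

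Coding peaks with the run also had higher folds among those not chosen by the cutoff. In mAb the share with the run was 0.229% below a log2 fold of 0, 1.36% from 0 to 1, 2.03% from 1 to 2 and 3.63% from 2 to 3. It was 28.7% from 3 to 4 (25 of 87 peaks) and 29.4% at 4 and over (5 of 17). In rAb the share was 0% below 0, 0.390% from 0 to 1, 1.23% from 1 to 2 and 4.07% from 2 to 3. It was 3.54% from 3 to 4, where 981 of the 1017 peaks had under 10 IP reads, and 30.4% at 4 and over (14 of 46). The rise therefore began well under the cutoff in both colon lists.

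Coding peaks with the run reached at least 10 traced IP reads more often. In mAb 39 of 163 peaks with the run did, against 370 of 7463 without it. In rAb 22 of 116 did, against 234 of 4777. Peaks below input were not traced. Within the deeper peaks the floor of 10 reads itself draws the IP reads of both groups together. Among coding peaks traced to at least 10 IP reads, the 39 mAb peaks with the run had a median of 13 IP reads and 4 input reads, and the 370 without it 14 and 10. Their median log2 folds were 2.89 and 1.26, and 43.6% and 7.30% of them were sites. In rAb the 22 peaks with the run had medians of 15.5 IP and 6 input reads, and the 234 without it 14 and 20, with median log2 folds of 3.38 and 1.4, and 59.1% and 18.8% of them were sites. At this depth the peaks with the run had fewer input reads in both lists, which restates their higher folds. Whether reverse transcription that started on the transcript itself contributed to these peaks was not tested.

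**Figure D3:**
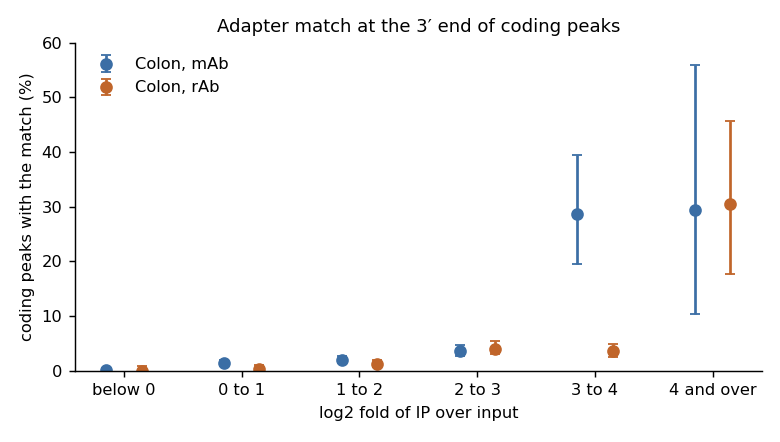
Share of coding peaks with the TCGGAAG run at the 3′ end (y axis, percent) by log2 fold of IP over input (x axis), for mAb (blue) and rAb (orange), with exact 95% intervals as bars. The share is under 5% in every bin below 3 and reaches 28.7% and 29.4% in the top bins of mAb and 30.4% in the top bin of rAb.

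C3 had 1 coding site in each colon list, both on exon 30. The mAb peak had 15 IP reads over 1 input read, a log2 fold of 4.47 (counting interval 1.77 to 9.87), and the rAb peak 16 over 3, a log2 fold of 4.07 (2.26 to 6.49). The rAb interval lies inside the mAb interval, and with the TCGGAAG peaks left out neither list had a coding site in C3. Ahcyl1, which encodes a regulator of calcium release from the endoplasmic reticulum, had a rAb coding site in exon 5 with 13 IP over 4 input reads, a log2 fold of 3.35. The overlapping mAb peak had 13 over 3 reads and a log2 fold of 2.68, under the cutoff. In exon 6 the order was reversed. The rAb coding peaks there, at 2.92 and 2.98, missed the cutoff by their folds. Both overlapped a mAb peak at 3.47 that passed the cutoff in fold and p. That mAb peak was not in the coding class, so it is not counted among the coding sites. The rAb coding site of Ahcyl1 in exon 5 had no TCGGAAG run.

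The 2 colon lists shared 21 coding sites by overlap of at least 1 base, which is 47.7% of the mAb sites (32.5 to 63.3) and 26.9% of the rAb sites (17.5 to 38.2). These sites lay on genes of varied function, and 11 of the 21 mAb sites and 10 of the 21 rAb sites had the run. Senp2, a protease that removes SUMO from proteins, had the highest pair, with log2 folds of 4.65 (17 IP over 1 input read) in mAb and 5.46 (14 over 1) in rAb. Sumo3, which encodes SUMO itself, had 3.50 (23 over 3) and 5.41 (27 over 2). Usp8, a deubiquitinase, had 4.26 and 3.24, and Ubr4, a ubiquitin ligase, 3.05 and 4.05. Senp2, Sumo3 and Usp8 held the run at the shared site in both lists, and Ubr4 held it in mAb and in 1 of its 2 rAb intervals, the one at 3.72. In the ubiquitin and SUMO gene list, which holds Sumo3 and Ubr4, 2 of 116 coding peaks were sites in mAb and 4 of 63 in rAb, or 1.72% and 6.35%, beside 0.577% and 1.59% of all coding peaks.

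Other shared sites lay on RNA and actin factors. Cnot8, a deadenylase subunit that shortens poly(A) tails, had sites on both sides of the junction of exons 5 and 6, at 4.56 and 4.26 in mAb and 4.65 and 4.46 in rAb. Rpl5, a protein of the large ribosomal subunit, had the same arrangement over exons 5 and 6, at 3.73 in mAb and 4.46 in rAb, with no run. Inf2, a formin that builds actin filaments, had 4.56 and 4.65, also with no run. Myo1e, an actin-based motor, had 3.15 and 4.24 on exon 9, and Tmod3, which caps actin filaments, 3.15 and 3.79. Cxadr, a junction protein that viruses use as a receptor, had sites in exons 3 and 4 with 52 and 54 IP reads in mAb, among the deepest of that list.

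Some sites in neighbouring exons formed such pairs. A coding site that ended within 3 bases of its exon's end was followed by another site at the start of the next exon in 5 of the 44 sites in mAb, in 10 of the 78 in rAb and in 24 of the 378 in small intestine. Reads that span the junction can count for both members of such a pair, which are not independent. With the run of the next exon's peak counted as well, 19 of 44 mAb sites and 23 of 78 rAb sites carried it.

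Sites of one colon list were mostly called peaks of the other. Of the 44 mAb sites, 35 overlapped a called coding peak in rAb, and the median log2 fold there was 3.98. Of the 78 rAb sites, 73 overlapped a called coding peak in mAb, with a median of 2.61. All of these overlapping peaks lay above 0. Across the 1611 overlapping pairs of coding peaks the rank correlation of the folds was 0.718, a description over peaks that share libraries and genes. Among the 105 pairs that hold a site in at least 1 list it was 0.0162. These pairs were chosen by the same folds, which lowers a correlation by itself, so this value does not measure how well sites agree. The partner of a site need not have passed the cutoff, and such partners ranged from 0.56 to 4.65 in mAb and from 0.43 to 5.65 in rAb.

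Myh9, the heavy chain of non-muscle myosin IIA, was the transcript with the most coding sites in the colon and held none of the runs. It had 47 coding peaks in rAb, 16 of them sites, with a median log2 fold of 2.61 (-0.25 to 3.85). In mAb it had 48 coding peaks and 1 site, with a median log2 fold of 2.0 (-1.52 to 3.81). The peaks were well covered, with a median of 31 IP reads in rAb and 41 in mAb. The 2 lists covered the transcript with similar numbers of peaks and differed in how many stood past the cutoff, a difference that was not tested. Myh14, a related myosin heavy chain, had 3 rAb sites, the highest at 4.11. The cytoskeleton list had 23 sites among 255 coding peaks in rAb, of which Myh9 gave 16 and Myh14 3, and 3 among 405 in mAb. These are 9.02% and 0.741%, beside 1.59% and 0.577% of all coding peaks.
None of the 16 rAb sites of Myh9 holds the run, and 6 of them hold GAAGAA. Those of exons 40 and 35 are shown as examples of these 6, with GAAGAA in capitals (GRCm38, minus strand).
Myh9 exon 40, rAb, chr15:77762951-77762976: tcagctccctGAAGAAcaaactgagg
Myh9 exon 35, rAb, chr15:77765720-77765829: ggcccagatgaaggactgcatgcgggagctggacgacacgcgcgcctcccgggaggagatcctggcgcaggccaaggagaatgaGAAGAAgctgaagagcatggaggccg

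Igkc, the constant region of immunoglobulin light chain kappa, held the deepest rAb coding sites, at 116 IP reads each. Its 3 abutting intervals had log2 folds of 3.70, 3.61 and 3.47 in rAb, and the overlapping mAb peaks had 1.4, 0.74 and 0.74. Igkc is a transcript of B lymphocytes and plasma cells, and immunoglobulin genes share sequence, so assignment among them is uncertain. Immunoglobulin genes had 18 coding peaks in rAb with a median of -0.25 and 26 in mAb with a median of -0.62. The part of other cells in this result was not tested. Of 6 immune markers, 2 (Cd74 and Lyz2) had coding peaks in each colon list, 11 in mAb and 9 in rAb. None was a site, where 0.577% and 1.59% of all coding peaks were, so these are too few peaks to show a difference.

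The other marker lists fitted the labelled tissue in part. Of 8 epithelial markers, 7 had coding peaks in mAb, 6 in rAb and 3 in small intestine. Enterocyte markers had coding peaks for 6 of 8 genes in the small intestine and for none in either colon list. Colon epithelial markers had them for 4 of 8 genes in mAb, 2 in rAb and none in the small intestine. Fibroblast and smooth muscle markers such as Col1a1 had 78 coding peaks in mAb and 64 in rAb, with median log2 folds of -0.83 and 0.07. None was a site, where 0.577% and 1.59% of all coding peaks were, so these are too few peaks to show a difference. Neuronal markers had no peak in any list.

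Many coding sites of the small intestine lay on mRNAs typical of the absorptive enterocyte. Apob, the core protein of chylomicrons, had 18 coding sites over 11 exons, with log2 folds from 3.11 to 5.72 and a median of 3.78. The fatty acid binding protein Fabp2 had 7, with a median of 3.84, and its exon 3 site reached 4.67 with a −log10 p at the cap of 400. Apoa4, an apolipoprotein of chylomicrons, had 8 with a median of 3.39. The lipid uptake list as a whole held 47 sites on 9 genes. In each colon list it held 13 coding peaks and no site, too few peaks to show a difference at 0.577% and 1.59% of all coding peaks past the cutoff. Fabp1, the liver-type fatty acid binding protein, had 3 coding sites on exon 2, at 3.36, 3.43 and 3.66.
Sites of 4 of these transcripts are shown (GRCm38, plus strand), as the sequences that carried the small intestine signal; none holds TCGGAAG or GAAGAA.
Fabp1 exon 2, chr6:71201711-71201773: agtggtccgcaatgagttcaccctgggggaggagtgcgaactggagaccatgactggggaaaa
Fabp2 exon 3, chr3:122898734-122898809: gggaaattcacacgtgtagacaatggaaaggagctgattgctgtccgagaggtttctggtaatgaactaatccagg
Apob exon 26, chr12:8008678-8008751: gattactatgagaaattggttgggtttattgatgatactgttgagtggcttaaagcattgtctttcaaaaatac
Muc13 exon 4, chr16:33803062-33803091: gtaaaggaactgcttcttgtgttaagctgc

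Brush border and mucus transcripts followed. Muc13, a transmembrane mucin, had 12 coding sites with a median log2 fold of 4.19 (3.08 to 6.33). The disaccharidases Mgam and Sis had 8 and 6, with medians of 3.59 and 3.73, and Vil1, which bundles actin in microvilli, had 6 with a median of 3.34. The intermediate filament keratin Krt20 had 8 with a median of 3.44. Reg3b, a secreted lectin that acts on bacteria, had 8 intervals in 2 joined stretches, so its count stands for few separate regions. The cytoskeleton and brush border list held 27 sites on 10 genes, and the defence list 14 on 4 genes (Reg3b, Pigr, H2-K1 and B2m).

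**Figure D4:**
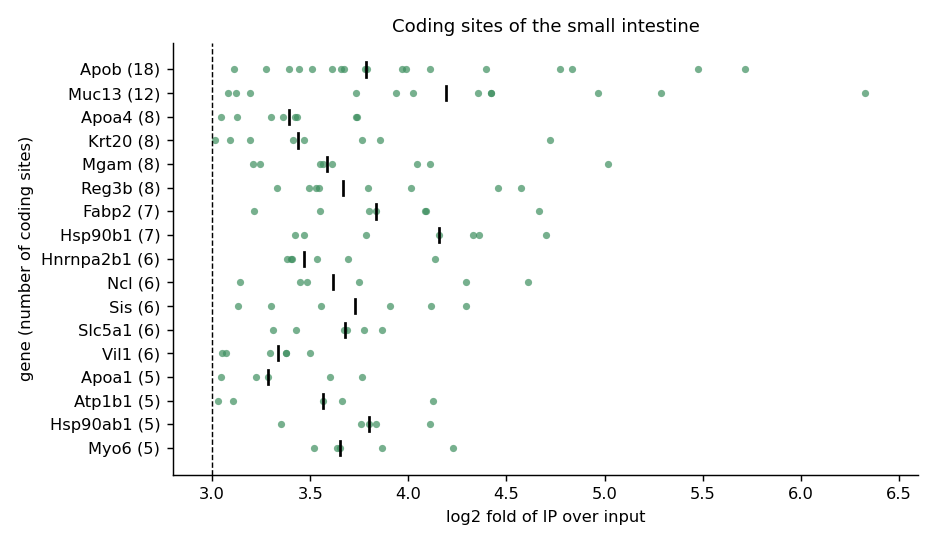
Log2 fold of IP over input (x axis) of each coding site of the small intestine genes with at least 5 coding sites (y axis, number of sites in brackets), with the median as a black bar and the cutoff as a dashed line. Apob leads with 18 sites and Muc13 with 12 reaches 6.33, while the sites of Vil1 and Apoa1 stay close to the cutoff.

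Chaperones and RNA factors formed a further group. Chaperone transcripts had 26 coding sites on 8 genes with a median log2 fold of 4.13, beside 3.74 for all coding sites of the list. Hsp90aa1, the inducible form of a cytosolic chaperone, reached 5.62, and Hsp90b1, its counterpart of the endoplasmic reticulum, had 7 sites with a median of 4.16. RNA processing proteins had 20 sites on 8 genes with a median of 3.61, among them Ncl and Hnrnpa2b1 with 6 each. Immediate-early transcripts had 12 sites on 6 genes, led by Jun at 5.20. In the colon lists the chaperone list had 104 coding peaks in mAb and 75 in rAb, and the RNA processing list 264 and 172. None was a site, where 0.577% and 1.59% of all coding peaks were, a share that would give few or no sites among this number of peaks.

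Of all coding peaks, 0.577% in mAb and 1.59% in rAb were sites, and the counts for ribosomal protein, collagen and keratin transcripts are given beside that share. Ribosomal protein genes had 240 coding peaks in mAb and 210 in rAb, with median log2 folds of -0.31 and 0.65, and Rpl5 held the 2 sites of each list, or 0.833% and 0.952% of these peaks. In the small intestine Rpl4 had the 1 site of this group. Collagens had 111 and 93 coding peaks in the colon lists, with medians of -0.66 and 0.43, and no site in any list. Keratins had 43 and 35 coding peaks in the colon lists with medians of -0.40 and 0.07 and no site, and 11 sites on Krt20 and Krt8 in the small intestine. A peak of the small intestine that missed the cutoff was not listed, so no median over called peaks exists there.

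The small intestine coding sites were rich in purines. At least 70% of bases were A or G in 82 of 378 sites, or 21.7% (17.6 to 26.2), against 5.86% of 62-base windows along the coding sequence of the same genes. Limited to sites of at least 30 bases, the share was 22.3% (17.8 to 27.2), and 7.94% of such small intestine sites outside the coding class reached it. In the colon 6.82% of mAb sites and 3.85% of rAb sites reached it, and 8.93% and 9.28% of the other coding peaks. Short peaks reach such a share more easily: limited to 30 bases, the other coding peaks came to 5.11% and 5.00%.

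**Figure D5:**
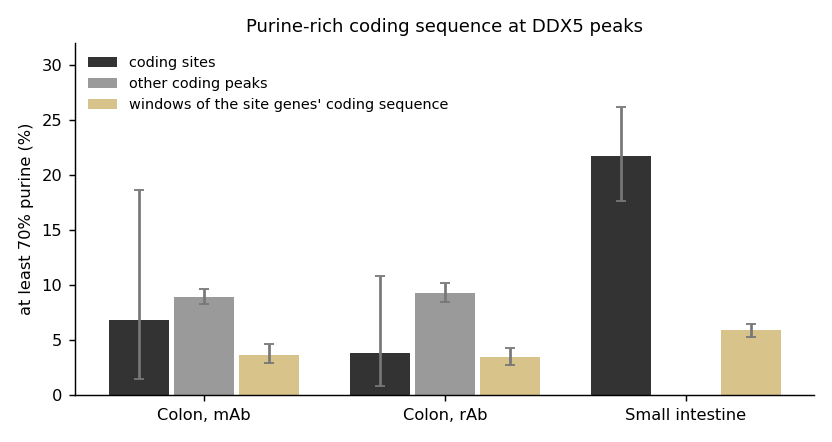
Share of coding sites, other coding peaks and windows of coding sequence with at least 70% purine (y axis, percent) in the 3 lists (x axis), with exact 95% intervals as bars. The windows are of the site genes and as long as the median site; the small intestine sites stand at 21.7% over windows at 5.86%, and its list holds no other coding peaks.

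The hexamer GAAGAA showed the same contrast. It was sought on the strand of the peak, within the peak, and was present in 69 of 378 small intestine coding sites on 52 genes, or 18.3% (14.5 to 22.5). Windows of 62 bases from the same genes held it in 8.49%, and small intestine sites outside the coding class in 4.22%. In rAb 11 of 78 sites held it, or 14.1% (7.26 to 23.8), against 10.6% of 70-base windows of the site genes and 5.79% of other coding peaks. Of these 11 sites, 6 lay on Myh9 and 2 on Myh14, so they are not independent. In mAb 6.82% of sites and 5.91% of other coding peaks held it. The hexamer CTGCTG, in contrast, was in 5.03% of small intestine sites and 5.91% of the windows.
Sites with the hexamer are shown because they make the purine-rich class visible; capitals mark GAAGAA (GRCm38).
Ccar1 exon 17, chr10:62756633-62756675, minus strand: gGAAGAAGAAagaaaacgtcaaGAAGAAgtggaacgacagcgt
Hsp90aa1 exon 5, chr12:110694121-110694177, minus strand: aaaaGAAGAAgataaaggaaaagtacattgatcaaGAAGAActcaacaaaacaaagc
Ncor1 exon 15, chr11:62384756-62384802, minus strand: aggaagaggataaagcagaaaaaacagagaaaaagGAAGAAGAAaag
Rbm25 exon 11, chr12:83668213-83668300, plus strand: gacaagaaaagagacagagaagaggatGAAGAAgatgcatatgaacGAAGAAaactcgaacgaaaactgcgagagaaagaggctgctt

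These transcripts encode nuclear and chaperone proteins. Ccar1, a coactivator of transcription, had log2 folds of 6.70 in exon 16 and 5.50 in exon 17, where the sequence above lies. Rbm25, a splicing factor, had 5.65, and Ncor1, a corepressor of nuclear receptors, 5.25. The translation factors Eif3a and Eif5b also carried GAAGAA sites, with Eif3a at 5.24. Runs of GAAGAA in frame encode glutamate, and the reading frame of these sites was not examined.

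The highest fold of all coding sites was on Prdm13, a transcription factor of the nervous system, at 9.15 in 2 abutting intervals of 19 bases together. Short GC-rich intervals of this kind recurred on genes with little known role in the enterocyte. Bcr, a signalling protein of wide expression, had 3 abutting intervals, the highest at 5.57, and Pcdh10, a protocadherin, had 2 at 6.31. Pcdh10 was the clearest site shared between tissues: mAb had 2 abutting sites at 4.52, with 31 IP over 2 input reads, on the same bases to within 1 at each end.
Their joined intervals are shown in full (GRCm38), since they are short and alike in composition.
Prdm13, small intestine, chr4:21678951-21678969, minus strand: tctacggccctccggccgc
Pcdh10, small intestine, chr3:45381162-45381184, plus strand: agctccgcaccgcgcgccgggtc
Pcdh10, mAb, chr3:45381163-45381183, plus strand: gctccgcaccgcgcgccgggt
Bcr, small intestine, chr10:75061290-75061313, plus strand: gagccccgagcgtccgccccgcgc

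Few genes had coding sites in both tissues, where 0.577% and 1.59% of colon coding peaks were sites at all. There were 6, which is 3.59% of the 167 small intestine genes and 9.23% of the 65 colon genes: Mgam, Myh14, Myh9, Pappa, Pcdh10 and Plec. Myh9 alone had sites in all 3 lists, with 3 in the small intestine, the highest at 3.93. The sites themselves overlapped in Pcdh10 and in Pappa, a secreted protease, at 3.26 in mAb and 3.29 in the small intestine. None of the small intestine coding sites overlapped a rAb site. Called coding peaks were shared more widely: 121 of the 167 small intestine site genes, or 72.5%, had one in mAb and 94, or 56.3%, in rAb.

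The small intestine sites had little enrichment where the colon lists covered them. Of the 378 sites, 104 overlapped a called coding peak in mAb, whose median log2 fold was 0.0061, with 52 above 0. In rAb 75 did, with a median of 0.65 and 56 above 0. These medians lie below those of the other coding peaks of their lists, 0.98 and 1.65. Read depth was not matched in this comparison, and most of the other coding peaks had few IP reads. No peak in a colon list means that CLIPper called none, and values at the remaining sites were not analysed here.

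Along the transcript, coding sites of all lists lay mainly in internal exons: 29 of 41 placed sites for mAb, 57 of 76 for rAb and 224 of 369 for small intestine. These counts are not set beside the internal share of other coding peaks, so they do not mark a trait of the sites. The last coding exon held 12.2% of the sites for mAb (4.08 to 26.2), 3.95% for rAb (0.822 to 11.1) and 17.1% for small intestine (13.4 to 21.3). For the other coding peaks it held 9.25% in mAb and 9.33% in rAb. The median site lay at 38% of the coding length for mAb, 59.1% for rAb and 45.2% for small intestine. The colon medians thus lay on opposite sides of those of the other coding peaks, 44.5% in both lists. Sites of a gene are not independent, and 16 of the rAb sites lay on Myh9 alone. This difference in position was not tested.

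The 5′ ends of small intestine coding sites were unequal over the reading frame. Of 305 sites whose end could be placed, 42.6% (37.0 to 48.4) began at codon position 2, 26.2% at position 1 and 31.1% at position 3. The mAb sites were also most frequent at position 2, with 9, 12 and 10 of 31 at positions 1, 2 and 3, and the rAb sites had 21, 19 and 20 of 60. In the colon lists the other coding peaks were close to even, at 34.7%, 32.9% and 32.5% for positions 1, 2 and 3 in mAb and at 35.1%, 32.7% and 32.2% in rAb. Ends of abutting sites of a gene are not independent, and no test was made.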

How the data were processed

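DDX5 eCLIPseq was measured in small intestine and colonic epithelial cells. Per the submitters' processing notes the authors used cutadapt 1.9.1, STAR 2.4.0i and SAMtools 1.4.1 with genome build mm10, and per the methods peaks were called with CLIPper. The authors deposited a −log10 p of IP against input reads, capped at 400, and a log2 fold normalized for read depth. A list with 2 columns of values that matched no sample label was not used. Members and gene lists were chosen with earlier results of these data known, and the TCGGAAG and GAAGAA searches were added after the data were seen. Colon reads were worked back by taking the commonest fold as 3 IP reads over 1 input read and requiring the −log10 p within 1%; this traced 99.2% of mAb and 99.6% of rAb peaks with a −log10 p above 0 and below the cap, and was tested on simulated data. Peaks resembling ribosomal RNA aligned over at least 20 bases at 90% identity to any of 65 sequences. Named genes were C3, Fabp1 and Ahcyl1, the 10 highest sites per list, up to 12 genes shared by the colon lists, all shared between tissues, the 5 with most sites, up to 3 per gene list and the neighbours of the cutoff; other genes named beside a printed sequence or a read depth were chosen after their values were seen. Intervals within 10 bases on a gene were joined where stated. Python 3.11.15, numpy 2.4.6, scipy 1.17.1, matplotlib 3.10.9, BLAST+ 2.17.0 and samtools 1.23.1 were used. Total reads per library are not given in the sources used here. Each list was 1 unit, and alternatives changed the cutoffs, the definition of coding, the overlap and the motif search.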

Additional observations from a re-analysis of the deposited data

How the results depend on the processing

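Of 102 alternative settings over these results, 71 kept the value and 31 moved it. Of the settings, 29 were chosen after seeing the data, all on the sequence searches. A share was kept if it stayed within the 95% limits of the main setting, and a count if it stayed within a fixed ratio of the main count. By that ratio the 78 rAb sites were kept at 52 with a −log10 p of 5 and at 102 with an adjusted p under 0.05. With a log2 fold of 4, coding sites numbered 17 (mAb), 32 (rAb) and 133 (small intestine), the shares fell to 0.223% and 0.654%, colon overlaps to 5 in each direction, genes shared between tissues to 1 and the rAb last-exon share to 0%, while GAAGAA rose to 24.1% in the small intestine. With a log2 fold of 1, sites numbered 102 and 140, shares were 1.34% and 2.86%, and overlaps 72 and 73. A −log10 p of 5 gave 21 mAb sites (0.275%) and a rAb share of 1.06%, and C3 then had 0 mAb sites. With every base coding, 27 mAb and 47 rAb sites remained, and the rAb share was 1.23%. Leaving out peaks with the TCGGAAG run or like ribosomal RNA gave 27 mAb sites, and 0 for C3 in both lists. Peaks traced to enough IP reads, which leave out those below input, gave shares of 10.8% and 15.7%. Overlap with any called coding peak gave 35 and 73, and overlap of peaks left 2 genes shared between tissues. The cause of these changes is the construction of each setting. The share of coding sites with the run ranged from 27.3% to 43.6% in mAb, 20.5% to 34.4% in rAb and 0% to 0.794% in the small intestine. No paired analysis was possible because replicate numbers recur among the small intestine libraries alone, whose values the authors merged into 1 list, and each replicate alone could not be run for the same reason. The fold of 1 does not apply to the small intestine list. Few IP reads limit the colon sites.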
